A study of Caenorhabditis elegans with 36 samples.

Results

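Of 24931 named genes counted in 36 Caenorhabditis elegans libraries, 53 were read in the 2-day adults of 1 transgenic strain and stood at least 20-fold lower in every adult library of the other 3 transgenic strains. Genes were selected on their adult values. A gene was taken when it had at least 2 CPM (reads of a gene scaled to the library total of named genes) in all 3 adult libraries of 1 strain and when every adult library of the other 3 strains was at least 20-fold below the lowest of those 3. 1 further identifier, listed as Y54G11A, met these limits and was left out. The 123CUG strain 1 had 14 such private genes, the 123CUG strain 2 had 7, the 0CUG strain 1 had 19 and the 0CUG strain 2 had 13. Because adult values chose the genes, their adult differences between these strains are given as a description, without a test. The L4 libraries of the same strains took no part in the choice, and tests were made there.

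RNA was sequenced from whole animals in 12 groups of 3 libraries, labelled either as 2-day adults or as L4, the larval stage before adulthood. The 123CUG strains 1 and 2 carry the integrated transgenes mgIs64 and mgIs84, in which the myo-3 promoter drives gfp with 123 CUG repeats in its 3' untranslated region. The 0CUG strains 1 and 2 carry mgIs65 and mgIs85, the same construct with 0 CUG repeats. The remaining groups were mbl-1(tm1563), a mutant of the muscleblind splicing factor gene, and N2, the Bristol wild type. All were fed HT115 bacteria carrying the empty RNAi vector. The myo-3 promoter is active in body wall muscle, so the transgene RNA is made in muscle while the libraries hold RNA of the whole worm. Each transgenic strain is 1 integrated line, so a feature of the line and an effect of its construct cannot be told apart within a strain. Nothing in the labels ties the 3 libraries of a group to separate cultures. The p-values therefore cover the spread among libraries, which could be technical, and no more.

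C. elegans transgenes are commonly made as arrays of many plasmid copies that are then integrated into a chromosome, and each integrated line is kept as its own inbred stock. Chemoreceptor genes are among the largest gene families of the worm, and chromosome V is rich in them. They encode membrane receptors with which sensory neurons detect odours and pheromones, and most are read at very low levels in whole worms. C-type lectins are secreted or membrane proteins, many of which respond to infection.

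Libraries held 25239933 to 47903768 reads of named genes, so that 2 CPM stood for 53.9 to 84.2 reads in an adult library of a transgenic strain. The summed level of 6 yolk protein genes, an adult mark, was 1744 to 8566 CPM in the transgenic L4 libraries. It was 98571 to 102335 CPM in the mbl-1 libraries labelled L4 and 102031 to 118703 CPM in the N2 libraries labelled L4. These mbl-1 and N2 libraries therefore stand with adults, and no level of a private gene in an N2 larva is given. The L4 libraries labelled 0CUG strain 1 stood apart in another way. They carried the private genes of the 0CUG strain 2 as well as their own, as described below. Whether they hold RNA of 1 line or of both was not tested, so their values are given by label, and the counts of calls for the other strains are also given without them.

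The 53 genes lay at 49 loci on 6 chromosomes, where genes of 1 strain that start within 50000 bases of the next were put in 1 locus. 46 loci held 1 private gene. The 3 others, in coordinates of build WBcel235 as deposited, were the ZK218 locus of the 123CUG strain 1 on chromosome V (ZK218.7, ZK218.14 and rrn-4.3, starting at 17105783, 17109684 and 17117863), the str-174 and str-170 locus of the 123CUG strain 2 on chromosome IV (4872267 and 4877402), and the K09C6.8 and K09C6.6 locus of the 0CUG strain 2 on chromosome V (840236 and 844450). 3 pairs of private genes of different strains also started within 50000 bases of each other. On chromosome IV, srx-50 of the 123CUG strain 1 lay 14414 bases from srg-48 of the 0CUG strain 1. On chromosome I, F49B2.6 of the 123CUG strain 1 lay 20076 bases from F49B2.3 of the 123CUG strain 2. On chromosome V, srh-15 of the 0CUG strain 2 lay 23464 bases from C26E1.1 of the 0CUG strain 1. Chromosome V held 23 of the 53 private genes, a share of 43.4%, against 18.6% of the 10374 genes with at least 2 CPM in all 3 adult libraries of at least 1 transgenic strain.

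By symbol, 10 of the 53 were chemoreceptor genes of the sr and str families, a share of 18.9%. Of those 10374 detected genes, 48 had a symbol that starts so, or 0.463%. A symbol of this form need not be that of a chemoreceptor gene. The 10 were srw-66 and srx-50 in the 123CUG strain 1, str-174, str-170 and sre-24 in the 123CUG strain 2, srg-48, sru-21 and sre-11 in the 0CUG strain 1, and srt-47 and srh-15 in the 0CUG strain 2. Each of the 4 strains thus had at least 2. The str prefix was added to the family after the members were seen, and without it 8 remained. C-type lectins made up 3 of the 53 (clec-239, clec-162 and clec-36), or 5.66%, against 0.617% of detected genes. Here and for chromosome V, the detected genes include the 53 and also genes read alike in all 4 strains. The limits could not have taken the latter, so these shares are a description. 1 gene, fbxa-222, encodes an F-box protein, the substrate-binding part of a ubiquitin ligase. By the deposited classes 48 were protein-coding, 4 were pseudogenes (ZK218.14, W01A8.7, C14A6.10 and Y26D4A.15) and 1 was a ribosomal RNA gene. None carried the symbol of a nuclear receptor, cytochrome P450, glucuronosyltransferase, collagen, MATH domain protein, histone or major sperm protein.

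The wild type did not read these genes at the level of the strain that did. In both N2 groups and in the adult mbl-1 group all 53 were at least 20-fold below the lowest adult library of their own strain in all 3 libraries, and this held for 51 in the mbl-1 libraries that carry the L4 label. The highest mean was that of C56E10.3, a gene private to the 123CUG strain 1. It had 98.1, 94.9 and 92.8 CPM in adults of that strain, against at most 2.74 CPM in adults of the other transgenic strains, 4.52, 2.48 and 1.24 CPM in mbl-1 adults and 0.577, 0.643 and 2.98 CPM in N2 adults. The 2.74 CPM, in 1 library of the 0CUG strain 2, were the most that any of the 53 had in an adult library of another transgenic strain. 21 of the 53 genes had no read in any of the 9 adult libraries of the other 3 transgenic strains.

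**Figure D1:**
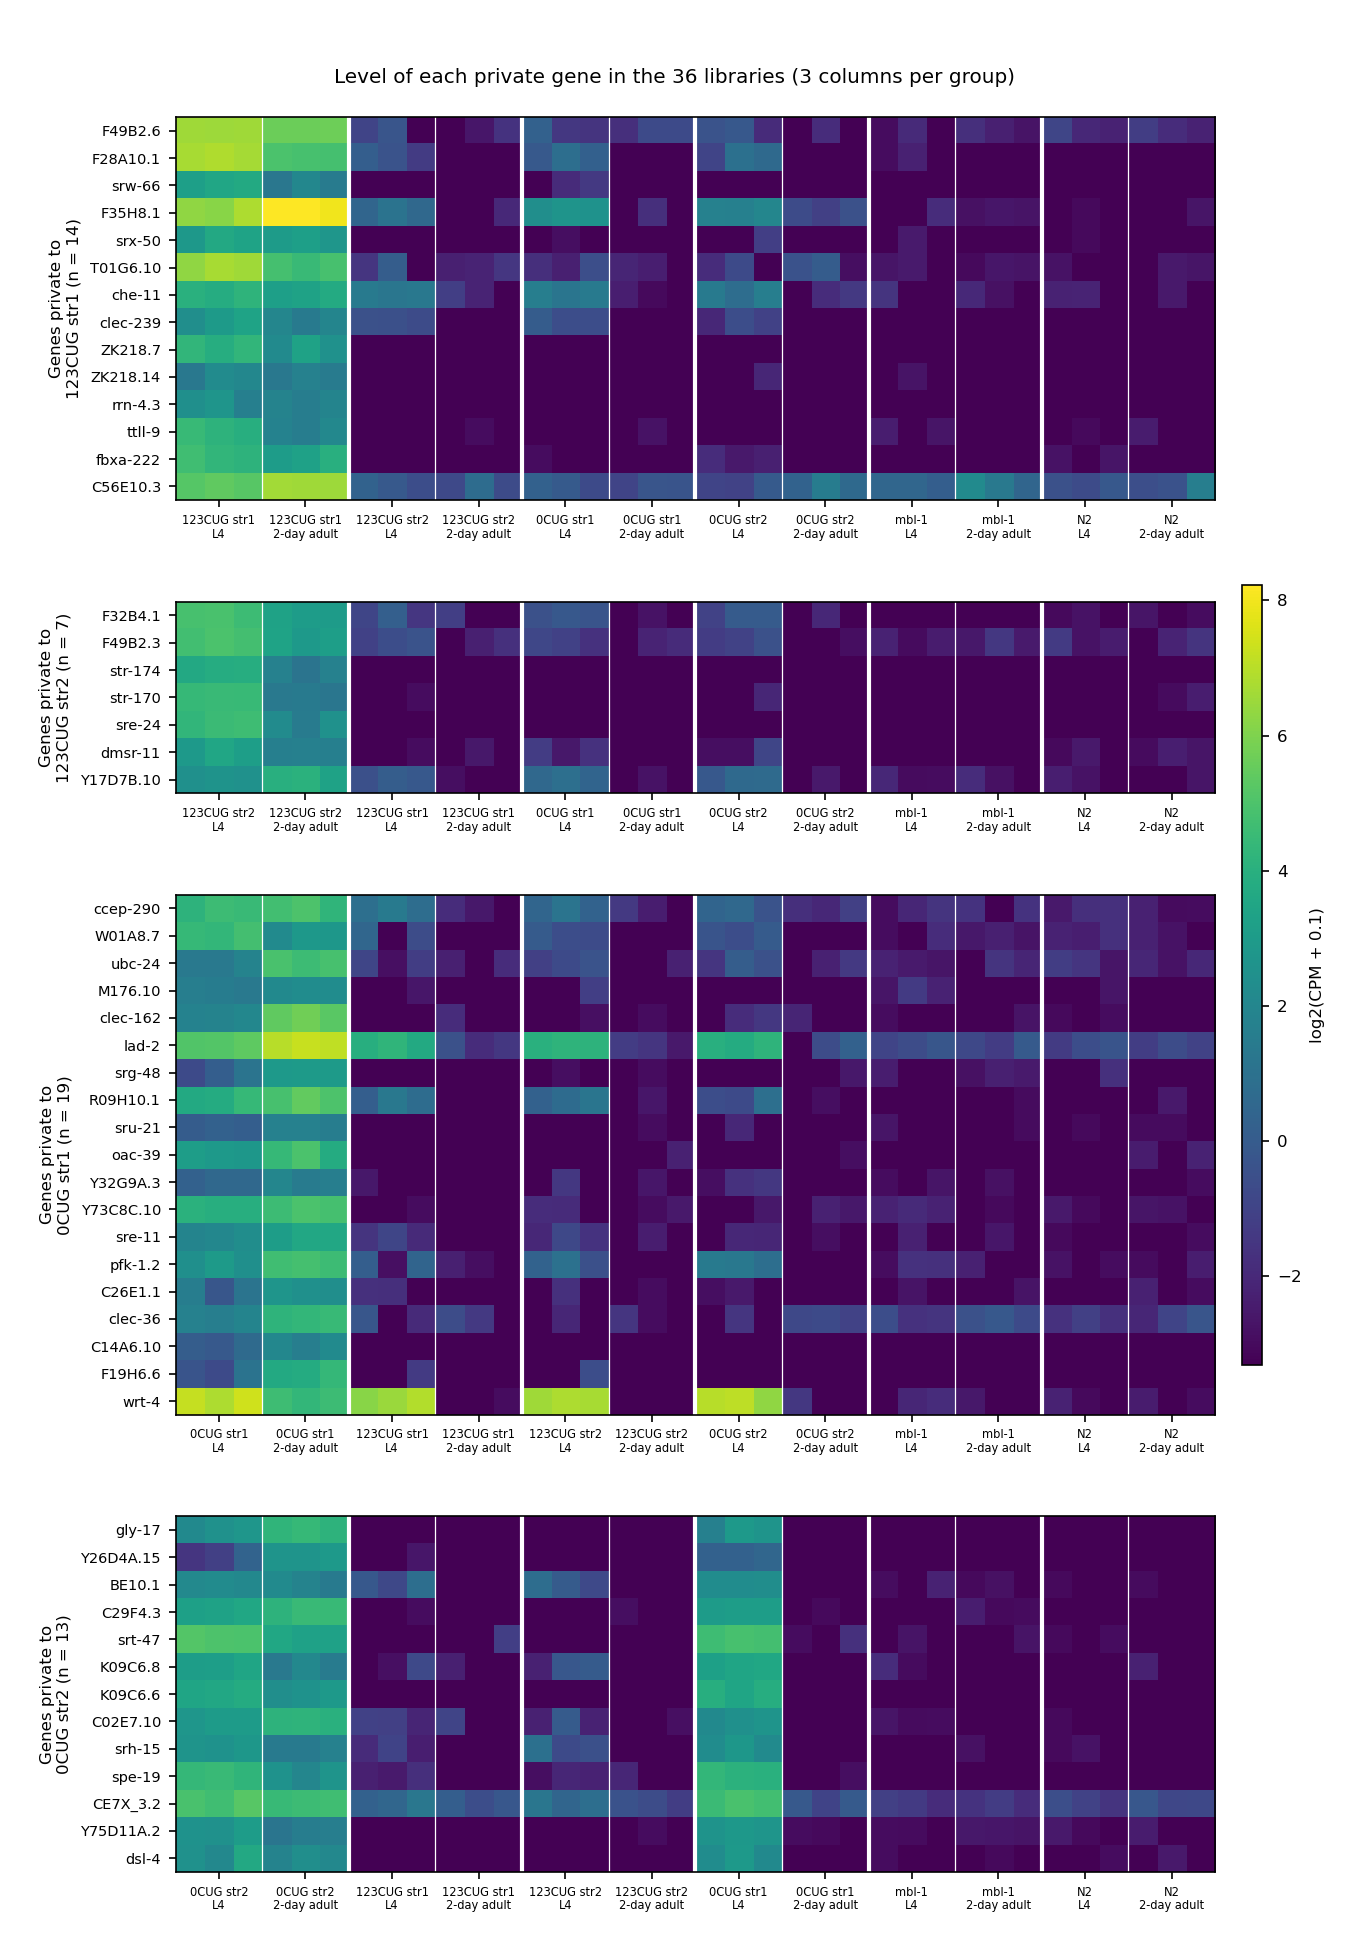
Level of each of the 53 private genes, as log2(CPM + 0.1), in all 36 libraries, with 1 panel per strain, 1 row per gene and 3 columns per group. The own strain is on the left of each panel. In the lowest panel the 13 genes of the 0CUG strain 2 are also bright in the L4 columns of the 0CUG strain 1 and dark in its adult columns.

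In the 123CUG strain 1, 14 genes were private, and all 14 were read at L4 as well. Per kilobase of gene length, F35H8.1 (chromosome II, 9552631 to 9553261) stood highest of the 53 in adults, at 606 CPM per kilobase. It had 80.5, 72.7 and 110.2 CPM in the L4 libraries of this strain, against 1.27 to 6.30 CPM in the 9 L4 libraries of the other strains. In adults it had 337, 309 and 252 CPM in this strain, against at most 0.628 CPM in the other strains. Every library of this strain was thus far above all others at both stages, although the other larvae did read the gene. In RNA of whole worms, more cells of a type and more RNA per cell cannot be told apart.

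2 members of this strain are known from cilia, the antenna-like endings of sensory neurons. che-11 (chromosome V, 12144295 to 12150689) encodes a part of the intraflagellar transport machinery that moves cargo back along the cilium. It had 15.8, 13.9 and 18.1 CPM in the L4 libraries of this strain, against 1.63 to 2.94 CPM in the other L4 libraries. In adults it had 9.12, 10.01 and 13.1 CPM in this strain, against at most 0.349 CPM. ttll-9, of the tubulin tyrosine ligase-like enzymes that modify microtubules, had 21.9, 17.4 and 15.2 CPM at L4 and no read in the other 9 L4 libraries. che-11 was therefore a gene that all larvae read and this strain read more, whereas ttll-9 had no larval reads outside the strain.

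F49B2.6 (chromosome I, 14331085 to 14339839), F28A10.1 (II, 826187 to 827610) and T01G6.10 (V, 502142 to 503223) have no gene name in the reference. F49B2.6 had 94.8, 93.5 and 95.2 CPM in the L4 libraries of this strain, against 0 to 1.12 CPM in the other L4 libraries. F28A10.1 had 106, 117 and 103 CPM, against 0.303 to 1.80 CPM. T01G6.10 had 78.5, 107 and 94.3 CPM, against 0 to 0.966 CPM. None of these came near the levels of the strain itself in any other L4 library, and in adults of this strain they averaged 49.7 ± 1.18, 29.4 ± 1.58 and 26.6 ± 3.45 CPM (SD, n = 3), all lower than at L4.

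At the ZK218 locus ZK218.7 had 19.1, 14.5 and 19.4 CPM at L4 in this strain and no read in the other 9 L4 libraries, which gives a level at least 1659-fold higher when the others are put at 3 reads over the 9 libraries together. The pseudogene ZK218.14 had 2.34, 4.60 and 3.94 CPM, against at most 0.135 CPM. rrn-4.3 is a 5S ribosomal RNA gene, 1 of a set of near-identical tandem copies. It had 5.28, 6.38 and 3.04 CPM at L4 in this strain and no read in the others, and its counts are uncertain because reads of the copies cannot be placed for sure. The F-box gene fbxa-222 had 25.5, 19.4 and 17.6 CPM at L4, against at most 0.177 CPM. Beside C56E10.3, whose adult levels are given above, the remaining 3 members were the chemoreceptor genes srw-66 and srx-50 and the lectin gene clec-239, which averaged 11.2 ± 1.91, 9.90 ± 2.70 and 7.72 ± 2.55 CPM at L4 (SD, n = 3).

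In the 123CUG strain 2, 7 genes were private, 3 of them chemoreceptor genes. sre-24 (chromosome V, 2884711 to 2886425) had 19.5, 23.5 and 24.6 CPM in the L4 libraries of this strain and no read in the other 9 L4 libraries, at least 2101-fold higher on the same floor. In adults it had 4.64, 2.70 and 5.61 CPM and no read in the other strains, in mbl-1 adults or in N2 adults. str-174 (chromosome IV, 4872267 to 4873764) had 12.3, 14.1 and 14.7 CPM at L4, again with no read elsewhere among the transgenic L4 libraries. Its neighbour str-170 (4877402 to 4880315) had 21.1, 22.9 and 21.7 CPM, against at most 0.135 CPM. These 3 receptor genes were thus read in larvae and adults of 1 line and in almost no other library of the series.

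dmsr-11, a receptor of the family related to the myosuppressin receptors of insects, had 7.49, 11.4 and 8.68 CPM at L4 in this strain, against 0 to 0.437 CPM. F32B4.1 and F49B2.3, which are unnamed, had means of 27.9 ± 3.16 and 28.1 ± 2.33 CPM at L4 (SD, n = 3), against at most 1.03 and 0.678 CPM in the other strains. Y17D7B.10 had 5.44, 6.03 and 5.73 CPM at L4, against 0.610 to 1.75 CPM, and 15.6, 16.6 and 9.99 CPM in adults, against at most 0.0722 CPM. Of the 7 it alone was higher in adults than at L4 in every library of the strain.

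In the 0CUG strain 1, 19 genes were private, at 19 separate loci. Among those with known roles, lad-2 (chromosome IV, 2972307 to 2978461) encodes a cell adhesion protein of the L1 family that guides axons. It had 33.8, 34.8 and 40.9 CPM at L4 in this strain, against 12.7 to 18.6 CPM in the other L4 libraries. In adults it had 127, 155 and 140 CPM, against at most 1.12 CPM. wrt-4 (chromosome X, 15752258 to 15757269), of the hedgehog-related warthog family, had 147.2, 112.3 and 169.7 CPM at L4, against 72.7 to 134 CPM, with overlapping libraries. In adults it had 25.1, 19.9 and 24.3 CPM, against at most 0.264 CPM. Both genes were read in larvae of every transgenic strain and were private in adults alone.

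ccep-290 (chromosome I, 3487812 to 3499706) is the worm counterpart of CEP290, a protein of the zone at the base of the cilium. It had 17.6, 24.001 and 22.8 CPM at L4 in this strain, against 0.673 to 2.58 CPM, and 26.3, 31.6 and 18.6 CPM in adults, against at most 0.349 CPM. pfk-1.2, of the phosphofructokinases of glycolysis, had 5.27, 7.69 and 5.32 CPM at L4, against 0.0396 to 2.61 CPM, and 25.3, 28.1 and 23.99 CPM in adults, against at most 0.103 CPM. For both genes the L4 libraries of this strain were above all others. The adult gap was wider than the larval gap, but the choice of genes had required an adult gap of at least 20-fold and no larval gap.

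ubc-24, of the ubiquitin-conjugating enzymes, had 2.43, 2.46 and 3.49 CPM at L4, against 0.0396 to 0.955 CPM, and 30.03, 24.04 and 28.96 CPM in adults. The lectin gene clec-162 had 3.42, 3.47 and 3.98 CPM at L4, against 0 to 0.269 CPM, and 41.99, 53.2 and 38.9 CPM in adults. clec-36 had 3.23, 2.93 and 3.66 CPM at L4, against 0 to 0.745 CPM, and 18.4, 20.1 and 21.8 CPM in adults. These 3 genes were far higher in the adult libraries of the strain than in the L4 libraries with its label. oac-39, of a family of acyltransferase homologues, had 8.62, 7.62 and 6.74 CPM at L4 and no read in the other 9 L4 libraries, at least 644-fold higher. Y73C8C.10 had 16.6, 15.2 and 15.2 CPM at L4, against at most 0.177 CPM, and R09H10.1 had 12.7, 13.9 and 21.3 CPM, against 0.495 to 2.34 CPM. The other 9 members (W01A8.7, M176.10, srg-48, sru-21, Y32G9A.3, sre-11, C26E1.1, C14A6.10 and F19H6.6) had adult means between 3.14 and 15.7 CPM in this strain.

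In the 0CUG strain 2, 13 genes were private. srt-47, a chemoreceptor gene (chromosome IV, 15049411 to 15053371), had 11.8, 9.64 and 9.70 CPM in adults of this strain, against at most 0.348 CPM in the other strains. spe-19 (V, 20040927 to 20047398), which is needed for the activation of sperm, had 5.91, 3.79 and 6.21 CPM, against at most 0.139 CPM. dsl-4 (X, 14090389 to 14095490), of the family of Notch ligands, had 3.46, 5.12 and 4.12 CPM in this strain and no read in the adults of the other 3. Those adult levels were all low, and the gaps were wide because the other strains had almost no reads.

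gly-17 (I, 12376904 to 12378674), of the glycosyltransferases, had 18.9, 21.5 and 17.8 CPM in adults and no read in those of the other strains. C29F4.3 had 17.5, 22.6 and 21.9 CPM, against at most 0.0349 CPM, and C02E7.10 had 17.4, 18.2 and 16.1 CPM, against at most 0.413 CPM. CE7X_3.2, deposited as protein-coding and listed by RefSeq as a pseudogene, had 21.6, 23.9 and 25.7 CPM, against at most 0.999 CPM, the narrowest gap of the 53. The other members were K09C6.8, K09C6.6 (likewise a pseudogene in RefSeq), srh-15, Y75D11A.2, BE10.1 and Y26D4A.15, with adult means between 2.65 and 6.60 CPM.

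Whether a gene private in adults was also higher in the larvae of its strain was tested on the 12 transgenic L4 libraries with edgeR's quasi-likelihood test over 16210 genes, among them all 53. Set against the mean of the other 3 strains, 52 of the 53 were called higher in their own strain at an adjusted p under 0.05. This was so for 14 of 14 genes of the 123CUG strain 1, where 8% of all genes tested were called higher. It was so for 7 of 7 of the 123CUG strain 2, where 2.1% were called, for 18 of 19 of the 0CUG strain 1, where 8.61% were called, and for 13 of 13 of the 0CUG strain 2, where 2.43% were called. wrt-4 was not called (log2 difference 0.36 ± 0.17, SE, adjusted p = 0.225), but without a filter on low counts it was, at the same difference (adjusted p = 0.000549). Y26D4A.15 of the 0CUG strain 2 was called (adjusted p = 0.0264) and lost the call under 6 alternatives, among them the replicate block (adjusted p between 0.0523 and 0.152). No private gene was called lower. The median log2 difference was 8.47 over the genes of the 123CUG strain 1, 6.78 over those of the 123CUG strain 2, 4.59 over those of the 0CUG strain 1 and 5.11 over those of the 0CUG strain 2, against values between -0.01 and 0.01 over all genes tested. 7 of the genes had no reads in the other L4 libraries, and the medians were the same with those at their lower bounds. These 7 passed the filter on low counts through their own strain alone. Each difference is the mean of 3 log2 differences, 1 per other strain, so a strain with no reads weighs heavily in it. For spe-19, at 5.11, these were 7.25 and 7.75 against the 123CUG strains 1 and 2 and 0.32 against the 0CUG strain 1. Its pooled L4 level was 3.01-fold that of the 9 other libraries. Of the 0CUG strain 2 genes, 0 were put at a bound.

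A mean over 3 strains can hide a strain that also reads the gene, so the requirement of a call against each of the other 3 strains was also set. It was met by 14 of 14 genes of the 123CUG strain 1, where 2.54% of all genes tested met it, and by 7 of 7 genes of the 123CUG strain 2, where 0.864% did. Of the 19 genes of the 0CUG strain 1 it was met by 10, against 0.574% of all genes. A gene could miss it without reads in the other strain. C14A6.10 had no read in the 9 other L4 libraries and missed against the 0CUG strain 2 (edgeR, adjusted p = 0.0515). F19H6.6 had no read in the L4 libraries of the 0CUG strain 2 and was not called against it (edgeR, adjusted p = 0.106). Of the 13 genes of the 0CUG strain 2 it was met by 0, against 0.0123%. At an unadjusted p under 0.05 in edgeR 1 of these 13 met it, and with DESeq2 0 did. In terms of levels, all 3 L4 libraries of the own strain lay above all 9 others for 14 of 14, 7 of 7, 17 of 19 and 3 of 13 genes of these strains in that order, where 3.58%, 2.42%, 7.22% and 0.531% of all genes tested did so. The limits that defined a private gene in adults were met at L4 by 10, 5, 2 and 0 of them. Without the 3 L4 libraries labelled 0CUG strain 1 the count of the 0CUG strain 2 was another: 12 of its 12 tested genes were called higher than each 123CUG strain, where 1.58% of all 15606 genes tested were, and for 13 of 13 its libraries lay above the 6 others, where 5.24% did. For the 123CUG strains the counts stayed at 14 of 14 and 7 of 7 on both measures. Of all genes, 3.61% and 1.01% were called against both others, and for 6.13% and 5.18% the libraries lay above the 6 others.

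Among the genes of the 123CUG strains, the L4 difference from the mean of the other strains was 4.90 ± 0.12 on the log2 scale for F35H8.1 (adjusted p = 1.73e-16), 2.81 ± 0.18 for che-11 (adjusted p = 5.25e-10) and 2.32 ± 0.26 for Y17D7B.10 (adjusted p = 4.01e-06). The last 2 were the smallest of their strains. Among the genes of the 0CUG strain 1, ccep-290 differed by 3.73 ± 0.20 (adjusted p = 1.85e-10) and lad-2 by 1.07 ± 0.11 (adjusted p = 1.14e-06). pfk-1.2 differed by 2.15 ± 0.42 (adjusted p = 0.00252), yet against the 0CUG strain 2 alone it was not called (adjusted p = 0.271).

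**Figure D2:**
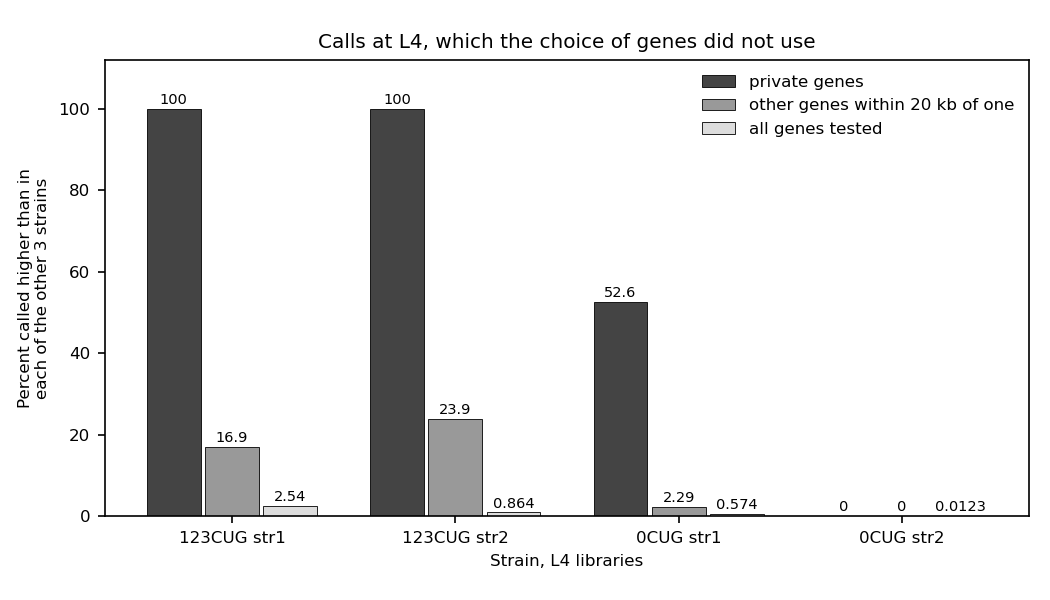
Percent of genes called higher at L4 against each of the other 3 strains by edgeR's quasi-likelihood test (adjusted p under 0.05), per strain. Dark bars are the private genes, grey bars the other tested genes that start within 20 kb of one, and light bars all 16210 genes tested. Private genes reach 100% in both 123CUG strains, 52.6% in the 0CUG strain 1 and 0% in the 0CUG strain 2.

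The genes private to the adults of the 0CUG strain 2 were read in the L4 libraries that carry the label of either 0CUG strain. srt-47 had 34.8, 31.6 and 31.3 CPM in the L4 libraries of the 0CUG strain 2, 24.7, 28.9 and 27.7 CPM in those of the 0CUG strain 1, and no read in the 6 libraries of the 123CUG strains. spe-19 had 20.6, 22.7 and 18.8 CPM in the 0CUG strain 2 and 20.2, 17.0 and 16.1 CPM in the 0CUG strain 1, against 0.0353 to 0.194 CPM in the 123CUG strains. K09C6.6 had 11.1, 11.9 and 13.8 CPM in the 0CUG strain 2, 14.9, 11.1 and 14.4 CPM in the 0CUG strain 1, and no read in the 123CUG strains. The sum of 3 sperm genes (msp-3, ssp-19 and spe-11), which bears on spe-19, was 24.7 to 40.1 CPM in L4 libraries of the 0CUG strain 2 and 40.2 to 57.5 CPM in those of the 0CUG strain 1, against 13.6 to 24.4 CPM in the 123CUG strains, and its part was not tested. The L4 libraries labelled as either 0CUG strain thus had these genes at close levels and stood well above those of the 123CUG strains.

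gly-17 had 4.38, 5.62 and 6.59 CPM in the L4 libraries of the 0CUG strain 2 and 3.13, 7.31 and 6.21 CPM in those of the 0CUG strain 1. dsl-4 had 5.72, 4.10 and 12.5 CPM in the 0CUG strain 2 and 4.89, 7.21 and 4.43 CPM in the 0CUG strain 1. Neither gene had a read in the 123CUG larvae. CE7X_3.2 had 30.3, 25.7 and 36.9 CPM in the 0CUG strain 2 and 23.4, 29.97 and 26.4 CPM in the 0CUG strain 1, against 1.12 to 2.32 CPM in the 123CUG strains. For all 3 genes the libraries of the 0CUG strains overlapped. In adults of the 0CUG strain 1 gly-17 and dsl-4 had no read, and CE7X_3.2 had at most 0.999 CPM in any other strain.

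Over the 13 genes the ratio of the mean L4 level in the 0CUG strain 2 to that in the 0CUG strain 1 ran between 0.509 and 1.42, with a median of 1.16, and the libraries of the 0CUG strains overlapped for 9 of the 13. None of the 13 was called between the 0CUG strains in either direction by edgeR's quasi-likelihood test, where 1.18% of all genes tested were called. At an unadjusted p under 0.05, 1 was (srt-47, adjusted p = 0.235), and DESeq2 called 0. The 95% interval of the log2 difference, 0CUG strain 2 minus 0CUG strain 1, was 0.07 to 0.67 for srt-47, -0.07 to 0.71 for spe-19 and -0.51 to 0.43 for K09C6.6. It was widest for Y26D4A.15, at -2.81 to 1.07. All 13 genes were called higher at L4 in the 0CUG strain 1 than in each 123CUG strain, where 4.33% of all genes were. The lowest L4 library of the 0CUG strain 1 lay above every 123CUG L4 library for all 13, where 13.1% of all genes did so. These counts were chosen after the values had been seen.

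In adults the same 13 genes had means of 0 to 0.707 CPM in the 0CUG strain 1, against 2.65 to 23.7 CPM in the 0CUG strain 2. Summed over the 13 genes, the adult libraries of the 0CUG strain 1 held 0.902, 0.451 and 1.12 CPM while its L4 libraries held 130, 146 and 139 CPM. The L4 libraries of the 0CUG strain 2 held 148, 144 and 171 CPM and its adult libraries 119.6, 129.8 and 127.7 CPM. Outside these genes, at most 3 private genes of a strain had a mean of at least 2 CPM in the L4 libraries of any other strain, against 12 of the 13 here. Summed over the 14 genes of the 123CUG strain 1, the 0CUG strain 1 L4 libraries held 11.5 to 12.3 CPM, against 507 to 550 CPM in that strain's own. Of the 19 genes of the 0CUG strain 1, 3 had a mean of at least 2 CPM in the L4 libraries of the 0CUG strain 2 and 2 in those of each 123CUG strain. lad-2 and wrt-4 were among them in every strain, and pfk-1.2 was the other in the 0CUG strain 2. Without the 3 L4 libraries of the 0CUG strain 1, 14 of 14, 7 of 7 and 12 of 13 genes of the remaining strains were called higher than the mean of the other 2, with no value for Y26D4A.15. Of all genes tested, 7.44%, 1.95% and 4.63% were called so in the 123CUG strains 1 and 2 and the 0CUG strain 2. Yolk and adult cuticle marks stood apart in the L4 libraries of the 0CUG strain 1 too. The sperm sum given above lay just above the others, at 40.2 to 57.5 CPM against 13.6 to 40.1 CPM. Oocyte and body wall muscle marks did not stand apart. The sum of 4 muscle genes (unc-54, myo-3, unc-15 and unc-22) was 1590 to 2755 CPM, against 2079 to 2893 CPM in the other transgenic strains. The sum of 3 oocyte genes (mex-3, mex-5 and puf-5) was 21.2 to 25.0 CPM in the L4 libraries of the 0CUG strain 1. It was 11.6 to 32.8 CPM in the L4 libraries of the other transgenic strains. The summed yolk level was 6731 to 8566 CPM in the L4 libraries of the 0CUG strain 1, against 1744 to 6078 CPM in those of the other strains, and the adult cuticle collagen gene col-19 had 620 to 815 CPM, against 149 to 438 CPM. In adults of the 0CUG strain 1 the yolk level was 64702 to 81687 CPM, against 100895 to 168097 CPM in the other transgenic strains. Their part in the result was not tested.

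**Figure D3:**
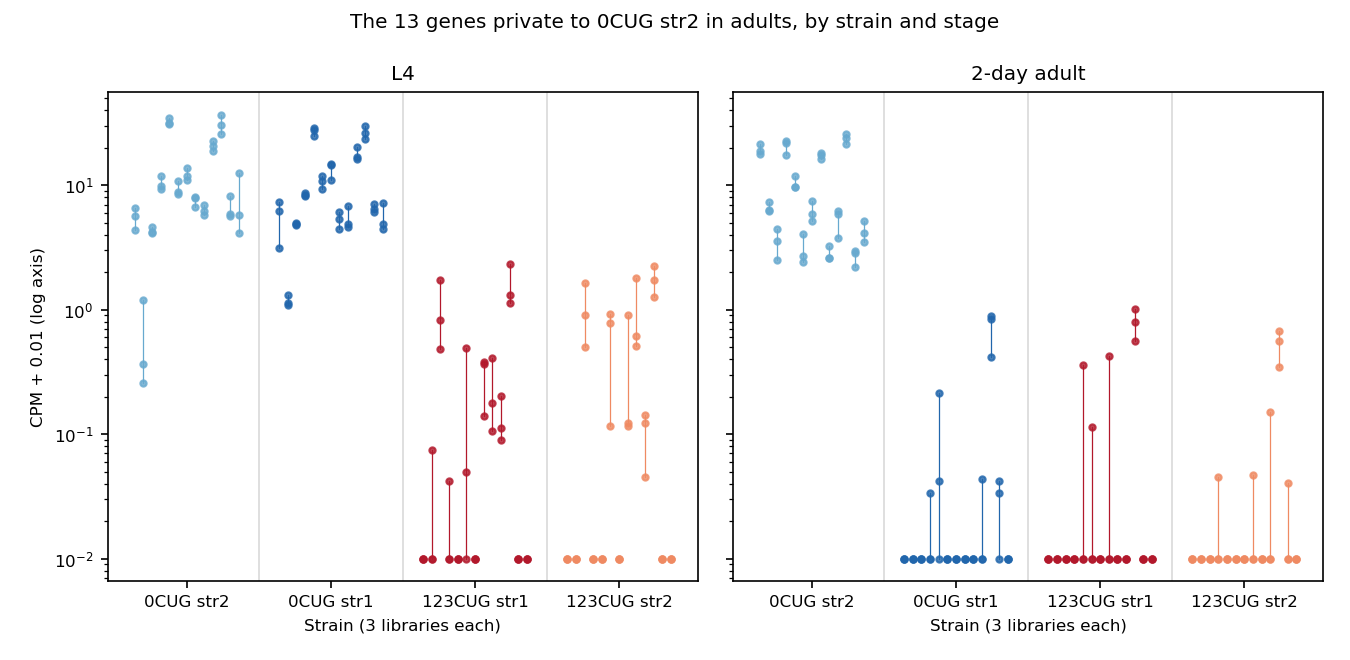
CPM plus 0.01 on a log axis of the 13 genes private to the 0CUG strain 2 in adults, in the 3 libraries of each transgenic strain at L4 (left) and in 2-day adults (right). Each vertical line joins the 3 libraries of 1 gene. At L4 both 0CUG strains lie above every 123CUG library gene by gene, and in adults only the 0CUG strain 2 stays above 2 CPM.

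Within their own strain, some private genes stood higher in larvae and others in adults. In the 0CUG strain 1, 16 of 19 had all 3 adult libraries above all 3 L4 libraries and 2 had all lower, with a median ratio of the adult mean to the L4 mean of 3.003. In the 123CUG strain 1, 2 of 14 were higher and 9 lower in adults, with a median ratio of 0.531. In the 123CUG strain 2, 1 of 7 was higher and 6 lower, with a median of 0.314, and in the 0CUG strain 2, 4 of 13 were higher and 6 lower, with a median of 0.568. Over all genes with at least 2 CPM in the adult libraries of a strain, 48.7% to 51.4% were higher and 34.1% to 35.8% lower in adults, with median ratios of 1.198 to 1.305. The adult floor of 2 CPM had chosen the members, while no larval level had, so no test of stage was made. For the 0CUG strain 1 the counts and the ratio rest on the L4 libraries with its label. Whether those hold RNA of 1 line or of both was not tested.

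The ratio of the adult to the L4 mean within the own strain was lowest for str-170, at 0.109, and highest for F19H6.6 of the 0CUG strain 1, at 14.5, followed by clec-162 at 12.3 and Y26D4A.15 at 11.1. F19H6.6 had 0.703, 0.506 and 2.04 CPM at L4 and 12.95, 13.9 and 20.4 CPM in adults. Y26D4A.15 had 0.247, 0.354 and 1.18 CPM at L4 and 6.20, 6.28 and 7.33 CPM in adults. Y26D4A.15 also had 1.09 to 1.30 CPM in the L4 libraries labelled 0CUG strain 1. In their own strains both genes were lower in each L4 library than in each adult library.

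**Figure D4:**
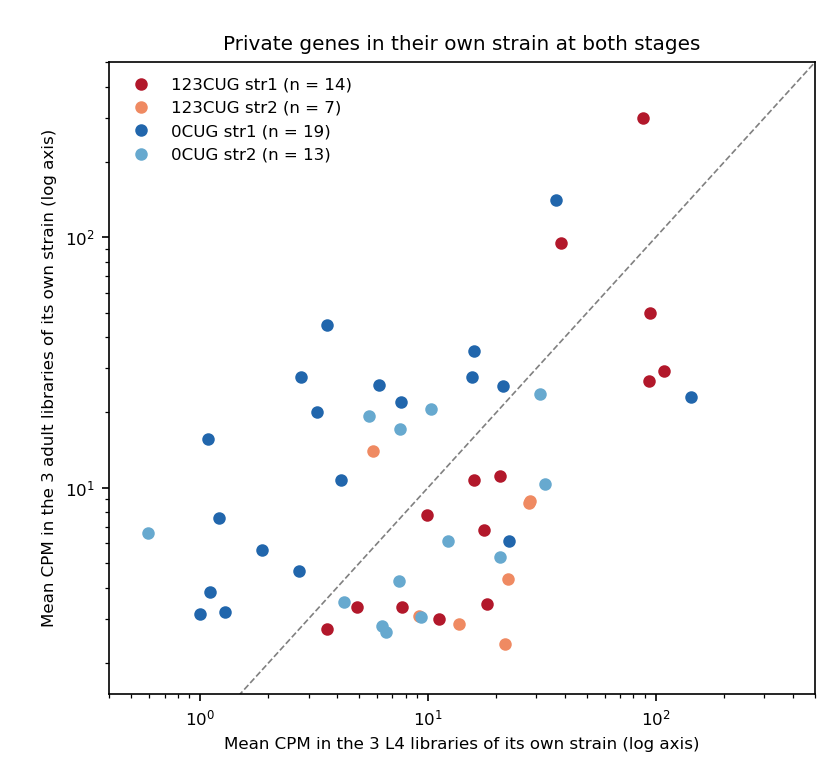
Mean CPM of each private gene in the 3 adult libraries of its own strain against its mean in the 3 L4 libraries of that strain, both on log axes, coloured by strain. The dashed line marks equal levels. Most genes of the 0CUG strain 1 lie above it, and most of the other strains below it.

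Some other genes near a private gene were also called higher at L4 in the same line. 539 other genes start within 20000 bases of a private gene, and 296 of them were tested at L4. Set against the mean of the other 3 strains, 17 of 59 tested neighbours were called higher in the 123CUG strain 1 (28.8%, against 8% of all genes tested), 14 of 46 in the 123CUG strain 2 (30.4%, against 2.1%), 19 of 131 in the 0CUG strain 1 (14.5%, against 8.61%) and 10 of 60 in the 0CUG strain 2 (16.7%, against 2.43%). Called lower were 15 of the 296, or 7, 1, 5 and 2 in these strains in that order (11.9%, 2.17%, 3.82% and 3.33%). Over all 16210 genes tested, 1460, 465, 551 and 259 were called lower. Called against each of the other 3 strains were 10, 11, 3 and 0 neighbours of these strains, where 2.54%, 0.864%, 0.574% and 0.0123% of all genes were. For the 0CUG strain 2, 2 neighbours met this at an unadjusted p under 0.05 in edgeR, and 1 with DESeq2. Without the 3 L4 libraries labelled 0CUG strain 1, 8 of 55 tested neighbours of the 0CUG strain 2 were called against both 123CUG strains, where 1.58% of all genes were. For the 123CUG strains 1 and 2, 12 of 57 and 11 of 45 were called against both others, where 3.61% and 1.01% of all genes were. Neighbours share a locus and are not independent of each other. The filter on low counts kept a gene that passed in the libraries of 1 strain alone. Neighbours with no read in the other strains, such as nhr-248, were thus tested only through the line where they were high. These shares are therefore a description.

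At the ZK218 locus 4 neighbours were called. nhr-248, a nuclear hormone receptor gene (chromosome V, 17103410 to 17104627), had 12.8, 11.6 and 12.98 CPM in the L4 libraries of the 123CUG strain 1 and no read in the 9 others. ZK218.11 had 3.59, 3.41 and 3.75 CPM and no read in the others. rrn-4.4 and sls-1.12, a 5S ribosomal RNA gene and a gene of the SL1 leader RNA that is spliced onto messenger RNAs, averaged 4.38 ± 0.39 and 3.16 ± 0.89 CPM (SD, n = 3), against at most 0 and 0.10 CPM, and as repeated genes they are uncertain. A run of adjacent genes, some of them below the adult floor of 2 CPM, was thus read at L4 in this line and had almost no reads in the other 3.

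At the str-174 and str-170 locus 6 neighbours were called, which were 5 genes of 21U small RNAs, the Piwi-bound RNAs of the germline, and the small nucleolar RNA gene T08B6.64. The 1 with the largest log2 difference, 21ur-2777 (4877088 to 4877108), had 6.60, 5.06 and 5.38 CPM in the L4 libraries of the 123CUG strain 2 and no read in the others. All 5 entries are this short, and whether their reads came from longer RNAs of the locus was not tested. 21ur-9908 lies inside str-170 on the other strand, and as the strand setting of the counting is not given, reads of such a pair cannot be told apart. Near sre-24, a further chemoreceptor gene, str-39 (chromosome V, 2877804 to 2879901), had 4.80, 7.23 and 5.23 CPM, against at most 0.15 CPM.

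Other called neighbours ranged between genes with few reads outside the line and genes that every strain read. Near srx-50, the chemoreceptor pseudogene srw-64 had 3.18, 3.80 and 2.81 CPM at L4 in the 123CUG strain 1, against at most 0.169 CPM in the other strains. Near sre-24, ifc-1, which encodes an intermediate filament protein, had 420, 494 and 423 CPM at L4 in the 123CUG strain 2, against 135 to 231 CPM in the other strains (log2 difference 1.33 ± 0.11, adjusted p = 7.08e-07). Near Y17D7B.10, the pseudogene Y17D7B.7 had 109, 94.9 and 96.3 CPM, against 17.5 to 39.6 CPM (1.83 ± 0.13, adjusted p = 1.17e-07). Near ttll-9, the pseudogene F25C8.1 had 48.4, 41.4 and 38.4 CPM in the 123CUG strain 1, against 0.10 to 1.52 CPM (6.21 ± 0.30, adjusted p = 1.27e-08). Near clec-239, efl-1, of the E2F transcription factors that govern the cell cycle, had 26.1, 45.2 and 37.5 CPM, against 8.98 to 14.1 CPM (1.71 ± 0.13, adjusted p = 5.99e-09). At L4 none of these 5 genes had overlapping libraries between the line and the others. Each had been called there against all 3 other strains. In adults the libraries of ifc-1 overlapped, at 16.6, 12.6 and 8.32 CPM against 1.95 to 10.99 CPM. Those of the others did not overlap. Near sru-21, ule-4 had 188 to 289 CPM at L4 in the 0CUG strain 1, against 47.8 to 141 CPM. In adults it was lower in this line, at 1983 to 2604 CPM against 3467 to 4369 CPM. The other called neighbours of this line, skpo-1 and ZK105.3, were higher in its adults too.

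The limits cut through a continuous range of values. Just inside the 20-fold limit lay CE7X_3.2, F32B4.1 and K09C6.8, whose lowest own adult library was 21.6, 22.9 and 23.3 times the highest adult library of the other strains. Just outside lay K10G4.5, F46F5.15 and ZK105.3, at 19.6, 19.5 and 19.4 times. Just above the floor of 2 CPM lay str-174, Y75D11A.2 and str-170, with lowest adult libraries of 2.06, 2.18 and 2.19 CPM, and just below it F35F10.14, sri-42 and sru-8, at 1.91, 1.83 and 1.73 CPM. ZK105.3 is also a neighbour of sre-11 that was called at L4, with 11.3, 11.8 and 12.9 CPM in the 0CUG strain 1, against 0.16 to 0.74 CPM. Of the 53, 7 overlap another annotated gene (M176.10, lad-2, sru-21, BE10.1, srt-47, spe-19 and str-170). Their reads cannot be divided for sure between the overlapping genes.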

How the data were processed

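The authors deposited read counts per gene in 10 tables of 6 libraries each. Per the submitters' processing notes the tools were HISAT2 and DESeq2 with build WBcel235. Versions, counter, annotation release and strandedness were not given in the sources used here. Tables were joined, a gene missing from a table being 0, and 120 other per-sample value columns were not used. 500 unnamed loci (0.0201% to 0.0643% of the reads) were left out. Gene lengths are other values that the authors deposited. CPM were computed from the deposited counts over named genes. Coordinates are those of the tables (WBcel235), and all 53 identifiers matched a RefSeq entry, which gave the symbols.

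L4 counts were tested by the quasi-likelihood test of edgeR 4.0.16 (R 4.3.3), with TMM factors and filterByExpr, with 1 coefficient per strain, robust dispersions and Benjamini-Hochberg adjustment over all 16210 genes, and called at an adjusted p under 0.05. SEs were derived from F. Alternatives were DESeq2 1.42.0, its size factors in edgeR, no filter, a replicate block and each library left out. The procedure was tested on simulated data. Each of the 36 within-group pairs of libraries differed beyond sampling noise (lowest median chi-square per gene 1.85, where noise gives 0.455), so none was merged.

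The members and lists were chosen with earlier results of these data known. Named genes were all members of a strain with up to 12. In larger strains they were the 10 with the highest lowest adult CPM, the members of the locus with most members and the 3 with the highest N2 adult mean. The genes at the 20-fold limit were added, and 40 of the 53 members were named by this rule. The others, the genes at the CPM floor and the neighbours were named after their values were seen. Floors cover counting error only. Intervals of log2 differences come from the SEs of the fit and take in the spread among libraries.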

Additional observations from a re-analysis of the deposited data

Results flagged for a closer look

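BE10.1 was the single private gene whose order between a pair of strains turned round between the stages with no overlap of libraries at either. At L4 it had 4.20, 4.60 and 4.10 CPM in the 0CUG strain 2, against 4.89, 4.79 and 4.98 CPM in the 0CUG strain 1, a difference of means of -0.583 CPM. In adults it had 4.45, 3.54 and 2.51 CPM in the 0CUG strain 2 and no read in the 0CUG strain 1, a direction that the choice of the gene had fixed. The difference between the stages was not tested, and at L4 the gene was not called between these strains by edgeR (adjusted p = 0.958).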

How the results depend on the processing

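The number of private genes was 53, against 81 at a 10-fold limit and 32 at a floor of 5 CPM. It was 42 at a 40-fold limit, 74 at a floor of 1 CPM, 54 on TMM-scaled CPM and 53 to 60 with any 1 adult library left out. Of the private genes, 51 to 53 were called higher at L4 and 30 to 36 in all 3 pairs under the alternatives of scaling, filter, tool and block, and 50 to 52 and 28 to 33 with any 1 L4 library left out. The 2 counts on the 0CUG strain 2 genes at L4 stayed at 13 and 0 under each of these. Neighbours called higher numbered 53 to 74 (53 to 63 with 1 library left out).

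Of 669 alternative values for the 40 named members none changed direction, 662 kept their side of the threshold and 6 lost the call, all of Y26D4A.15 (adjusted p between 0.0523 and 0.152). wrt-4 gained it without a filter (log2 difference 0.36, adjusted p = 0.000549).

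Counts over all genes moved more. Without a filter 529 genes were higher in the 123CUG strain 2 and 669 in the 0CUG strain 2, against 341 and 394. Without the 3 L4 libraries labelled 0CUG strain 1 the 0CUG strain 2 had 723, and 247 higher than each 123CUG strain. In all 3 pairs the 0CUG strain 1 had 93 genes, against 275 without a filter and 167 with DESeq2, and the 0CUG strain 2 had 2, against 31 and 13. With any 1 L4 library left out, genes higher than the mean of the others numbered 663 to 1613 (123CUG strain 1), 204 to 399 (123CUG strain 2), 801 to 1672 (0CUG strain 1) and 206 to 593 (0CUG strain 2). In all 3 pairs they numbered 231 to 465, 105 to 133, 55 to 138 and 0 to 32 in the same order. Apart from that last count, the L4 libraries whose removal moved a count by over 1.5 times were replicate 1 of the 123CUG strain 1 (663), replicate 3 of the 123CUG strain 2 (204), replicate 3 of the 0CUG strain 1 (801) and each of the 0CUG strain 2 (220, 206 and 593). The cause was not tested.

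Replicate numbers did not pair the libraries: over 18 pairs of same-numbered L4 libraries of different strains the correlations of same-numbered deviations ran from -0.0927 to 0.0491, with 0 over 0.1. With a replicate block 51 private genes were called higher and 30 in all 3 pairs, and the 0CUG strain 2 count in all 3 pairs over all genes was 0.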
